A study of Mus musculus with 10 samples.

Results

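Transcripts of immunoglobulin variable (V) segments were examined in RNA sequencing libraries of mouse spleen T cells, with type 2 conventional dendritic cells (cDC2s) alongside. The annotation of the table lists 348 V segments among 45706 genes, 185 of them heavy chain segments, 160 kappa and 3 lambda. Of these, 164 reached 1 TPM (a transcript level corrected for length and scaled to the same total in each library) in at least 2 of the 4 T cell libraries. These 164 segments, 83 heavy, 78 kappa and 3 lambda, are described here. They were thus chosen by their TPM in the T cell libraries, and their T cell values are given as a description, without a test. The T cells came from Cd47ΔT mice, which by name lack Cd47 in T cells (2 libraries), and from floxed Cd47f/f mice (2 libraries). The cDC2s came from the same genotypes, with 3 libraries each. No source used here gives the Cre line, the ages of the mice or how the cells were isolated. Whether replicates are separate mice is not labelled, so a p-value measures the spread between libraries and that spread may be technical.

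V segments lie in clusters at the heavy, kappa and lambda loci. In developing B cells 1 segment is joined to downstream D and J segments, or to J alone in light chains, and each clone of B cells and plasma cells then transcribes the V segment it joined. T cells join the V segments of T cell receptor genes instead, so immunoglobulin V transcripts are the usual product of B-lineage cells, and plasma cells hold very large amounts of them. CD47 is a surface protein that restrains the uptake of a cell by phagocytes.

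The labels were checked first. Cd47 had 40.4 and 51.7 TPM in Cd47ΔT T cells, against 138 and 233 TPM in Cd47f/f T cells (log2 fold change -1.95 ± 0.26 SE, limma adjusted p = 0.0112). In cDC2s Cd47 was at 135 to 159 TPM in Cd47ΔT and at 140.2 to 162 TPM in Cd47f/f libraries. The 11 T cell markers, which include the CD3 chains, summed to 7162 to 7870 TPM in the T cell libraries and to 16.03 to 24.6 TPM in the cDC2 libraries. The 10 cDC2 markers summed to 1177 to 1547 TPM in the cDC2 libraries and to 42.0 to 103 TPM in the T cell libraries. Sequencing depth cannot be read from TPM and is unknown here.

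The sequences of the segments that led the usage are given next, from the GENCODE M21 transcripts of GRCm38. Ighv3-6 (chr12:114288152-114288582, minus strand) was the highest heavy segment of Cd47ΔT T cell library 1. Igkv4-61 (chr6:69416893-69417455, minus strand) was the highest kappa segment of that library and was near 0 in Cd47f/f T cells. Igkv1-110 (chr6:68270485-68271267, plus strand) was the highest segment of Cd47ΔT library 2 and of Cd47f/f library 1. Iglv1 (chr16:19085017-19085500, minus strand) was the highest segment of Cd47ΔT library 1 and of Cd47f/f library 2. Their coding parts, the leader exon joined to the V exon, are 350 to 359 bases long, and the last 300 bases are printed. Capitals mark the bases that match TANTNNTGN near the 3′ end, the tyrosine and cysteine codons just before the site of joining.
Ighv3-6: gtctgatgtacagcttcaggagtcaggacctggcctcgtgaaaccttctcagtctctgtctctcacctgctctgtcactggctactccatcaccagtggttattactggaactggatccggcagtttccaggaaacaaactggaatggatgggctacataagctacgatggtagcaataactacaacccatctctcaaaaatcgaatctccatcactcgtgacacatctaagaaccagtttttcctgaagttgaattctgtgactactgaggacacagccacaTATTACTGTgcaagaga
Igkv4-61: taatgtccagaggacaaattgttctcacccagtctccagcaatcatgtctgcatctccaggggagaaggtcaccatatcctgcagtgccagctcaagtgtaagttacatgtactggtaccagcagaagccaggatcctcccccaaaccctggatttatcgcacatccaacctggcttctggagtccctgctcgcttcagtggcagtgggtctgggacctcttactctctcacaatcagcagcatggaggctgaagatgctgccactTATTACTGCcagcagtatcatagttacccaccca
Igkv1-110: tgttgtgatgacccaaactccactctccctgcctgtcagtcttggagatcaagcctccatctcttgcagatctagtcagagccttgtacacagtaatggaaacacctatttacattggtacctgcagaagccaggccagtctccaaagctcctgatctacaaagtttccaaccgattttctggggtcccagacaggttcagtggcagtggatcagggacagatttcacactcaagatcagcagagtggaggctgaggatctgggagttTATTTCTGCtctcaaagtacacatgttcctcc
Iglv1: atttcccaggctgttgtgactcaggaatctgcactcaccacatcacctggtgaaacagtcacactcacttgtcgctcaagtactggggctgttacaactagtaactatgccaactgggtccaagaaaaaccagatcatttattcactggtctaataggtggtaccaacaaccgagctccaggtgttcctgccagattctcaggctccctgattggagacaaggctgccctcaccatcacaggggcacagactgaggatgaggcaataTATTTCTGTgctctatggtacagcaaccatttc

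For 7 other segments the last 60 coding bases are enough to show the same end and the part where close copies differ. Ighv8-8 (chr12:115294062-115294504, minus strand) and Ighv1-26 (chr12:114788372-114788805, minus strand) were the highest heavy segments of the other T cell libraries. Igkv1-135 (chr6:67609713-67610508, plus strand) was the highest kappa segment of Cd47f/f library 2. Igkv14-111 (chr6:68256389-68256869, plus strand) was the only segment tested in cDC2s. Igkv1-117 (chr6:68121046-68121827, plus strand) is the closest copy of Igkv1-110. Iglv2 (chr16:19260401-19260859, minus strand) is the closest copy of Iglv1, and Iglv3 (chr16:19241207-19241690, minus strand) completes the lambda locus and has no match to the motif.
Ighv8-8: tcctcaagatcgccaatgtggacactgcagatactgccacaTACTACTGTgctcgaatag
Ighv1-26: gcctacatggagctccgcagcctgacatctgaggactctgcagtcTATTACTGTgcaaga
Igkv1-135: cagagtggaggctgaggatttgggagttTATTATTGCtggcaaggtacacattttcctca
Igkv14-111: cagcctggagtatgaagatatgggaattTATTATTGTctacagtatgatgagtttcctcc
Igkv1-117: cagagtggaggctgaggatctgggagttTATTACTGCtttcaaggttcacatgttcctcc
Iglv2: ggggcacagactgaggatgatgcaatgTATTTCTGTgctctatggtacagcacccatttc
Iglv3: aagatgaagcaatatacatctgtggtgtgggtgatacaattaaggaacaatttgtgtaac

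The end motif was shared by nearly all of the 164 segments, which the selection by level did not require. TANTNNTGN was found on the sense strand within the last 36 coding bases of 161 of 164 members (98.2%), and in the frame of the first coding base in the same number. It was found in 44 of the 52 V genes that missed the threshold (84.6%) and in 77 of 130 V pseudogenes (59.2%), of which 42 had it in frame. Matches on the antisense strand of this window were fewer, 17 among members, 5 among the other V genes and 8 among pseudogenes. A narrower form searched first, TANTANTGN, all of whose matches the wider form holds too, asks for a tyrosine codon just before the cysteine codon and was found in 123 members (75.0%), in 40 of the 52 other V genes (76.9%) and in 61 pseudogenes (46.9%). It was widened after the ends had been seen to read phenylalanine too, as in Igkv1-110 and Iglv1. All 164 members were annotated as V genes able to code, out of 216 such genes, and none of the 130 pseudogenes reached the threshold.

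Many of these segments have close copies in their own locus. The median identity of a member to its nearest annotated V segment was 95.4% of coding bases. For 33 members it was 97% or more and for 3 members 99% or more, the highest being 99.7% between Ighv1-62-2 and Ighv1-71. Igkv1-110 and Igkv1-117 shared 97.2% and Iglv1 and Iglv2 96.9%, whereas Iglv3 shared 58.1% with Iglv1. Reads of rearranged and mutated transcripts can be split between such copies, so the values of single segments in these pairs are uncertain, and the locus sums less so.

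V transcripts were about 6 times as abundant in Cd47ΔT as in Cd47f/f T cell libraries, at all 3 loci. The 164 segments summed to 6421 and 7202 TPM in Cd47ΔT T cells, against 1030 and 1234 TPM in Cd47f/f T cells. The means were 6811 ± 552 and 1132 ± 144 TPM (SD, n = 2 each), a ratio of 6.02. The groups lay far apart compared with their own spread. In a bulk library, more cells of a type and more RNA per cell cannot be told apart.

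The heavy segments summed to 2233 and 2426 TPM in Cd47ΔT T cells, against 336 and 458 TPM in Cd47f/f T cells. The kappa segments summed to 3789 and 4222 TPM in Cd47ΔT T cells, against 612 and 680 TPM in Cd47f/f T cells. The lambda segments summed to 399 and 553 TPM in Cd47ΔT T cells, against 82.7 and 95.5 TPM in Cd47f/f T cells. The ratios of means were 5.87 for heavy, 6.20 for kappa and 5.34 for lambda, so no locus overlapped between genotypes and the factors were close.

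**Figure D1:**
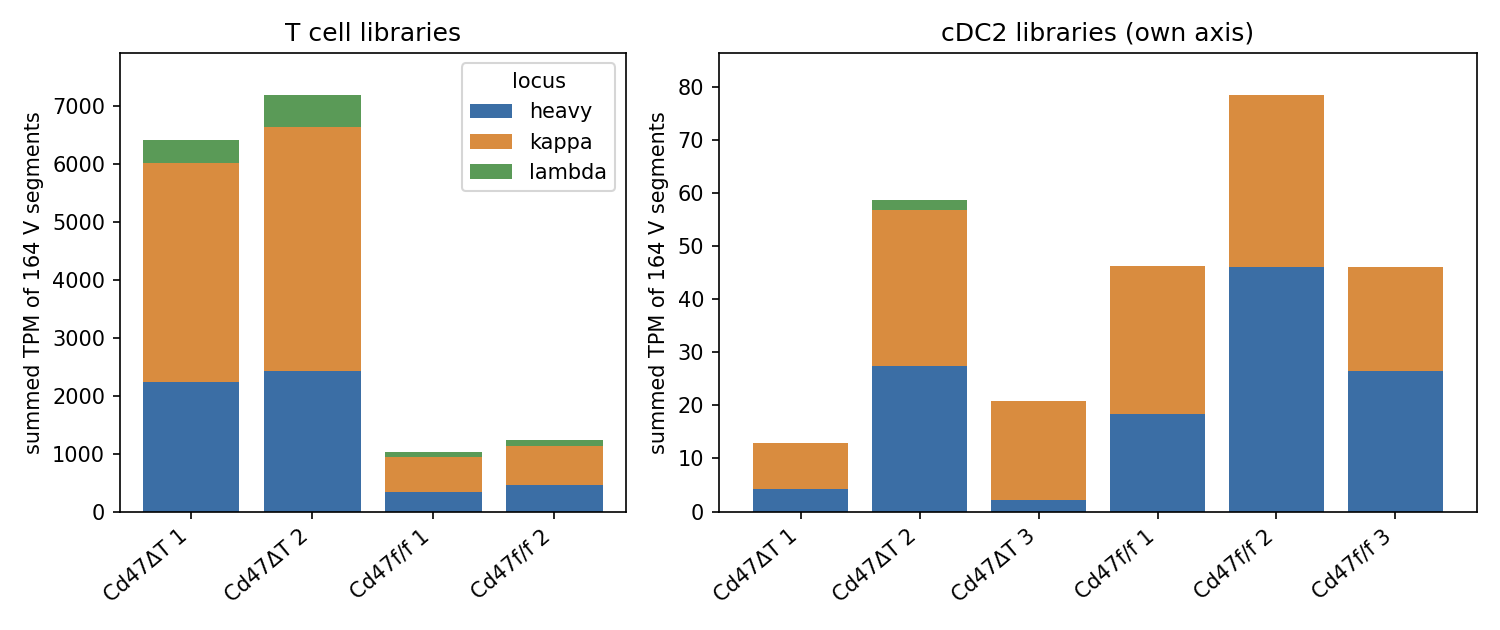
Summed TPM of the 164 V segments in each library, stacked by heavy, kappa and lambda locus, T cells on the left and cDC2s on the right with an axis of their own. The Cd47ΔT T cell bars reach 6421 and 7202 TPM and the Cd47f/f bars 1030 and 1234 TPM, while no cDC2 bar passes 78.5 TPM.

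Kappa segments held the largest share of the V total in every T cell library. Heavy segments held 34.8% and 33.7% of the V total in Cd47ΔT T cells and 32.6% and 37.1% in Cd47f/f T cells. Kappa segments held 59.0% and 58.6% in Cd47ΔT and 59.4% and 55.1% in Cd47f/f T cells. Lambda segments held 6.22% and 7.68% in Cd47ΔT and 8.03% and 7.74% in Cd47f/f T cells. The heavy and kappa shares overlapped between genotypes. The lambda shares did not, and the kappa level per lambda level was 9.49 and 7.63 in Cd47ΔT against 7.40 and 7.12 in Cd47f/f T cells. With 2 libraries a genotype, an exact permutation test cannot reach a p under 0.05, so these shares were not tested.

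Counts over the segments are given as a description. All Cd47ΔT T cell values lay above all Cd47f/f values for 136 of the 164 segments (82.9%), beside 37.0% of all tested genes. The reverse held for 0 segments, beside 11.9% of all tested genes. The T cell levels chose the segments, and 13 of them reached the threshold only through Cd47ΔT libraries and 0 only through Cd47f/f libraries, so nothing is read from these counts.

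The median segment had 21.2 and 24.4 TPM in Cd47ΔT T cells, against 3.28 and 3.86 TPM in Cd47f/f T cells. There were 110 and 125 segments at 10 TPM or more in Cd47ΔT, against 25 and 41 in Cd47f/f T cells. At 100 TPM or more stood 14 and 15 segments in Cd47ΔT and 0 in both Cd47f/f libraries. Of the 164, 99 were at 1 TPM or more in all 4 T cell libraries.

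Among kappa segments, which pair with the heavy chain in most mouse antibodies, Igkv1-110 was the highest over the T cell libraries. It had 169 and 640.1 TPM in Cd47ΔT T cells, against 99.8 and 46.9 TPM in Cd47f/f T cells. The lower Cd47ΔT value was less than 2 times the higher Cd47f/f value. Igkv1-117, its close copy, had 188 and 255 TPM in Cd47ΔT, against 26.9 and 21.6 TPM in Cd47f/f T cells. Igkv10-96 had 162 and 249 TPM in Cd47ΔT, against 23.0 and 24.3 TPM in Cd47f/f T cells. Igkv14-111 had 167 and 216 TPM in Cd47ΔT, against 28.1 and 32.1 TPM in Cd47f/f T cells. These 3 segments had similar levels within each genotype and did not overlap between genotypes. Igkv1-135 had 171 and 191 TPM in Cd47ΔT, against 25.1 and 49.1 TPM in Cd47f/f T cells. Igkv6-23 had 141 and 234 TPM in Cd47ΔT, against 21.2 and 28.5 TPM in Cd47f/f T cells. Both were likewise higher in each Cd47ΔT library.

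Among heavy segments the highest on average was Ighv3-6, with 279 and 38.1 TPM in Cd47ΔT T cells, against 5.61 and 14.1 TPM in Cd47f/f T cells. Its mean rested mainly on Cd47ΔT library 1. Ighv1-26 had 73.3 and 123 TPM in Cd47ΔT, against 29.1 and 29.8 TPM in Cd47f/f T cells. Ighv8-8 had 70.5 and 155 TPM in Cd47ΔT, against 3.80 and 5.02 TPM in Cd47f/f T cells. Ighv8-12 had 72.9 and 103 TPM in Cd47ΔT, against 3.80 and 5.69 TPM in Cd47f/f T cells. Both Ighv8 segments were low in both Cd47f/f libraries, while Ighv1-26 was the highest heavy segment there. Ighv1-53 had 62.4 and 112 TPM in Cd47ΔT, against 7.96 and 26.6 TPM in Cd47f/f T cells. Ighv7-3 had 66.4 and 86.7 TPM in Cd47ΔT, against 8.19 and 16.8 TPM in Cd47f/f T cells. None of the 6 overlapped between genotypes.

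The lambda locus of the mouse is small, and all 3 annotated segments were members. Iglv1 had 322 and 415 TPM in Cd47ΔT T cells, against 61.0 and 72.0 TPM in Cd47f/f T cells. Iglv2 had 63.1 and 127 TPM in Cd47ΔT, against 18.4 and 23.3 TPM in Cd47f/f T cells. Iglv3 had 14.0 and 11.7 TPM in Cd47ΔT, against 3.29 and 0.29 TPM in Cd47f/f T cells. The order Iglv1, Iglv2, Iglv3 was the same in all 4 T cell libraries, with Iglv1 holding 80.7% and 75.0% of lambda V in Cd47ΔT and 73.8% and 75.4% in Cd47f/f T cells.

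At the ends of the range stood segments at 0 or near it in Cd47f/f T cells. Igkv4-61 had 288 and 13.5 TPM in Cd47ΔT T cells, against 0.65 and 0 TPM in Cd47f/f T cells. Igkv6-25 had 57.5 and 41.0 TPM in Cd47ΔT and was listed at 0 in both Cd47f/f T cell libraries. Ighv1-15 had 56.4 and 46.5 TPM in Cd47ΔT, against 1.59 and 0.70 TPM in Cd47f/f T cells. The Cd47ΔT libraries were alike in Igkv6-25 and Ighv1-15 and far apart in Igkv4-61. There were 5 segments listed at 0 in both Cd47f/f libraries.

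The 10 segments with a lower mean in Cd47ΔT T cells were low or uneven ones. Ighv2-6 had 5.48 and 5.99 TPM in Cd47ΔT, against 25.2 and 4.23 TPM in Cd47f/f T cells. Igkv4-58 had 2.96 and 0 TPM in Cd47ΔT, against 6.65 and 0 TPM in Cd47f/f T cells. Igkv10-95 had 0 and 1.11 TPM in Cd47ΔT, against 0.69 and 5.02 TPM in Cd47f/f T cells. In each of the 3 the higher mean came from 1 Cd47f/f library and the groups overlapped.

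Just inside the threshold of 1 TPM were Ighv1-11, Ighv2-4 and Ighv2-6-8. Ighv2-4 had 1.02 and 1.16 TPM in Cd47ΔT T cells and was listed at 0 in both Cd47f/f libraries. Ighv1-11 had 0 and 1.08 TPM in Cd47ΔT, against 0 and 1.05 TPM in Cd47f/f T cells. Ighv2-6-8 had 1.58 and 1.09 TPM in Cd47ΔT and was listed at 0 in Cd47f/f T cells. Just outside were Ighv1-63, Igkv9-129 and Igkv9-123. Ighv1-63 had 0.99 and 1.62 TPM in Cd47ΔT, against 0.40 and 0 TPM in Cd47f/f T cells. Igkv9-129 had 0.98 and 4.8 TPM and Igkv9-123 had 3.80 and 0.92 TPM in Cd47ΔT, and both were listed at 0 in Cd47f/f T cells. The 184 segments outside the threshold summed to 46.6 and 86.6 TPM in Cd47ΔT, against 2.97 and 1.59 TPM in Cd47f/f T cells. The pseudogenes among them summed to 8.07 and 4.81 TPM in Cd47ΔT, against 1.21 and 0 TPM in Cd47f/f T cells.

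Usage was broad in every T cell library. The effective number of segments, the exponential of the Shannon entropy of their shares, was 86.5 and 81.4 in Cd47ΔT and 75.0 and 82.2 in Cd47f/f T cells. The 5 highest segments held 20.9% and 24.9% of the V total in Cd47ΔT and 25.03% and 19.7% in Cd47f/f T cells. The first 50% of the total was reached with 22 and 20 segments in Cd47ΔT and with 18 and 22 in Cd47f/f T cells. All 3 measures overlapped between genotypes. The highest segment was Iglv1 with 5.02% in Cd47ΔT library 1 and Igkv1-110 with 8.89% in Cd47ΔT library 2. It was Igkv1-110 with 9.68% in Cd47f/f library 1 and Iglv1 with 5.83% in Cd47f/f library 2. No segment passed 9.68% in any T cell library.

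**Figure D2:**
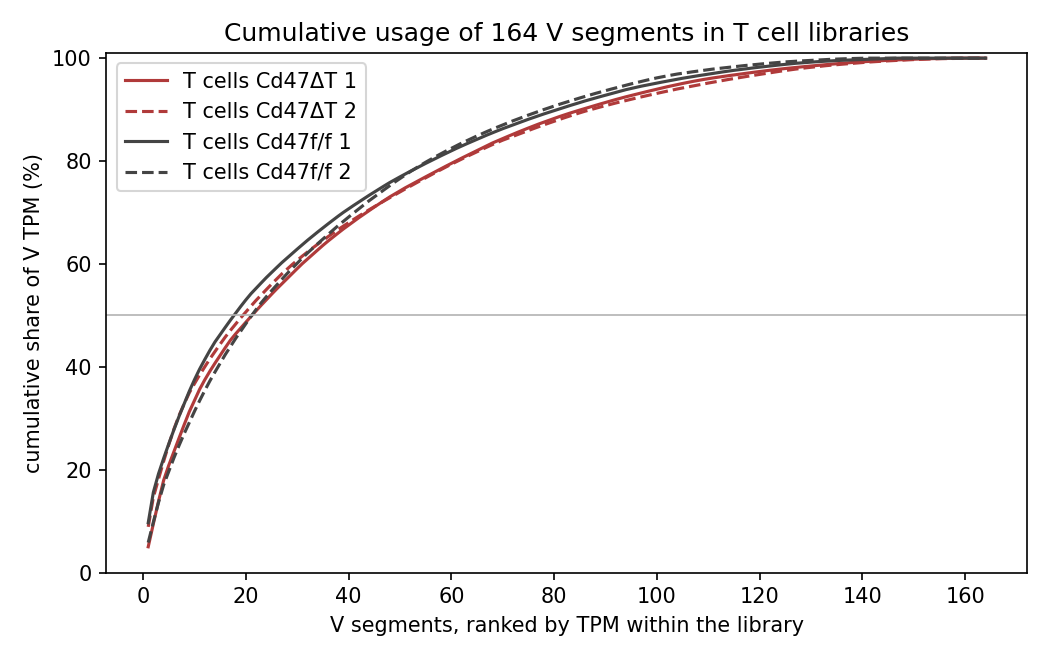
Cumulative share of the V total (%) against the rank of the segment within its own library, 1 line per T cell library, with a line at 50%. The 4 curves lie close together and cross 50% between 18 and 22 segments.

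Single segments differed far more between replicates than other genes did. Between both Cd47ΔT T cell libraries 16 segments (9.76%) were 4-fold or more apart on TPM + 1, beside 0.369% of all tested genes. Between both Cd47f/f T cell libraries 25 segments (15.2%) were, beside 0.458% of all tested genes. T cell receptor V genes, the counterpart that T cells rearrange, gave 1 of 115 tested genes (0.870%) in Cd47ΔT and 2 (1.74%) in Cd47f/f T cells. Pearson r of log2(TPM + 1) across the 164 segments was 0.71 between the Cd47ΔT libraries, 0.53 between the Cd47f/f libraries and 0.51 to 0.62 between genotypes. Across the 115 T cell receptor V genes r was 0.96 and 0.92 in the same pairs. These r run across genes of a library pair, which share the library, and are a description. Levels were lower in the Cd47f/f libraries, with a median of 3.28 and 3.86 TPM, and the part of level and depth in this spread was not tested.

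The segments that set Cd47ΔT library 1 apart held a larger share than those that set library 2 apart. In Cd47ΔT library 1 9 segments were 4-fold or more above library 2 and held 19.7% of its V total, against 2.20% of library 2. Igkv4-61 was among them, as was Ighv3-6. Igkv4-68 had 263 TPM in Cd47ΔT library 1 and 44.0 TPM in library 2, and Ighv2-3 had 138 and 16.7 TPM. The other 7 segments were 4-fold or more above in library 2 and held 3.50% of it, against 0.273% of library 1. Ighv1-66, with 1.87 TPM in library 1 and 99.5 TPM in library 2, was the most uneven of all. In Cd47f/f T cells 11 segments were higher in library 1, with 13.3% of its V total, and 14 in library 2, with 14.3%. Igkv4-68, Ighv2-3 and Ighv1-66 were chosen for this gap after their values were seen.

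**Figure D3:**
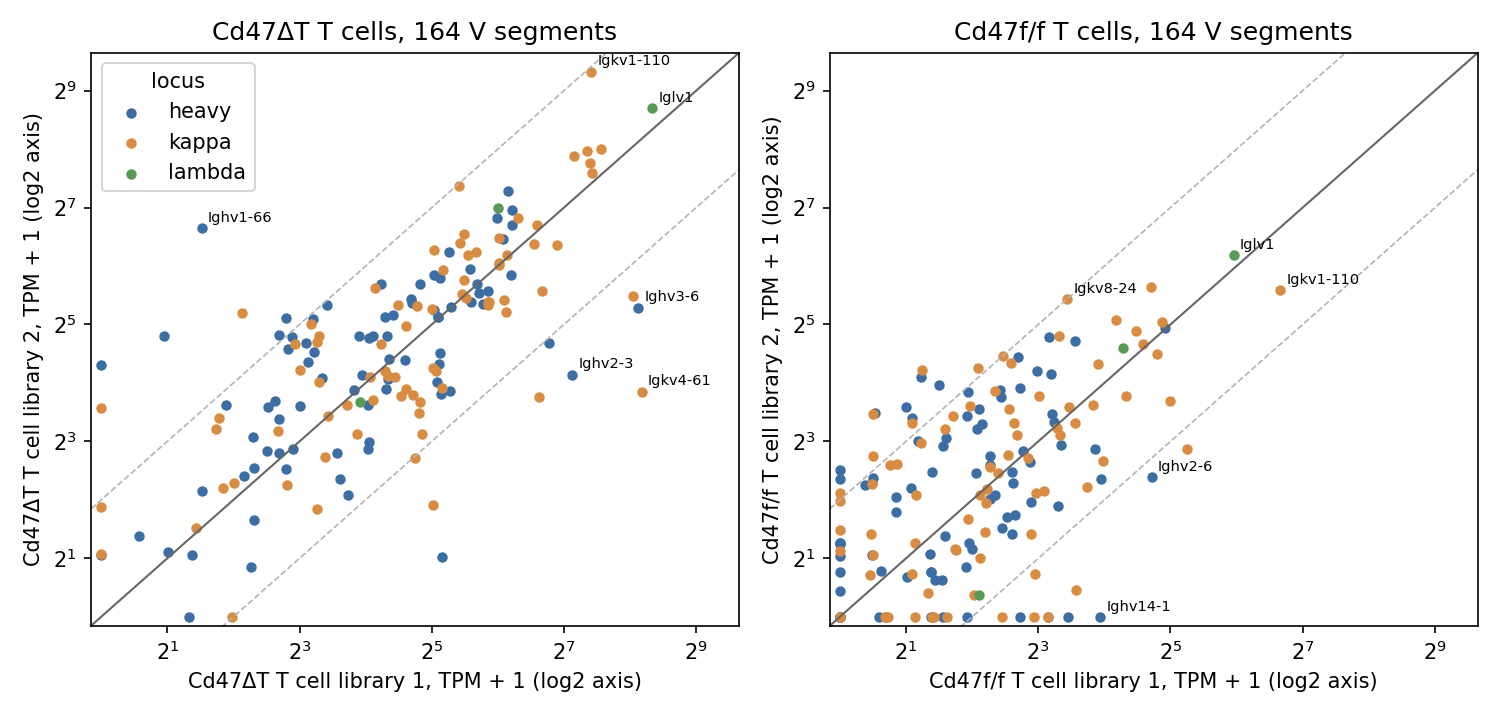
TPM + 1 of the 164 V segments in library 2 against library 1, on log2 axes, for Cd47ΔT T cells on the left and Cd47f/f T cells on the right, coloured by locus, with the solid line at equality and dashed lines at 4-fold. In the left panel 16 segments reach or pass the dashed lines, among them Igkv4-61, Ighv3-6 and Ighv1-66, and in the right panel 25 do.

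V subgroups, families of segments of like sequence, kept their order only in part. Ighv1, the largest heavy family with 41 members among 93 annotated, held 43.6% and 52.3% of heavy V in Cd47ΔT and 46.8% and 48.0% in Cd47f/f T cells. Ighv3 held 14.2% and 2.69% in Cd47ΔT and 3.31% and 3.80% in Cd47f/f T cells. Ighv8 held 7.97% and 10.7% in Cd47ΔT and 5.20% and 2.34% in Cd47f/f T cells, and Ighv5 held 4.50% and 5.36% in Cd47ΔT and 9.57% and 10.8% in Cd47f/f T cells. Of these 4 families Ighv8 and Ighv5 did not overlap between genotypes, while Ighv1 and Ighv3 spread most between the Cd47ΔT libraries. Igkv4, the largest kappa family with 20 members among 33, held 29.8% and 12.9% of kappa V in Cd47ΔT and 13.8% and 11.7% in Cd47f/f T cells. Igkv1 held 15.2% and 26.5% in Cd47ΔT and 25.5% and 18.0% in Cd47f/f T cells. Both of these kappa families overlapped between genotypes. Of the 10 kappa families with 3 or more members, 3 did not overlap. Igkv6 was higher, with 10.8% and 10.9% of kappa V in Cd47ΔT, against 7.54% and 10.3% in Cd47f/f T cells. Igkv3 was lower, with 3.19% and 2.60% in Cd47ΔT, against 6.38% and 5.06% in Cd47f/f T cells. Igkv8 was lower too, with 9.76% and 6.31% in Cd47ΔT, against 11.5% and 12.9% in Cd47f/f T cells. Of the 8 such heavy families 2 did not overlap, Ighv8 and Ighv5, and none of these shares was tested. By level, 37.0% of all tested genes lay wholly above and 11.9% wholly below in Cd47ΔT T cells. Those rates are of gene levels and not of shares within a locus, so they give no base rate for the families. Nothing is read from these family counts.

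**Figure D4:**
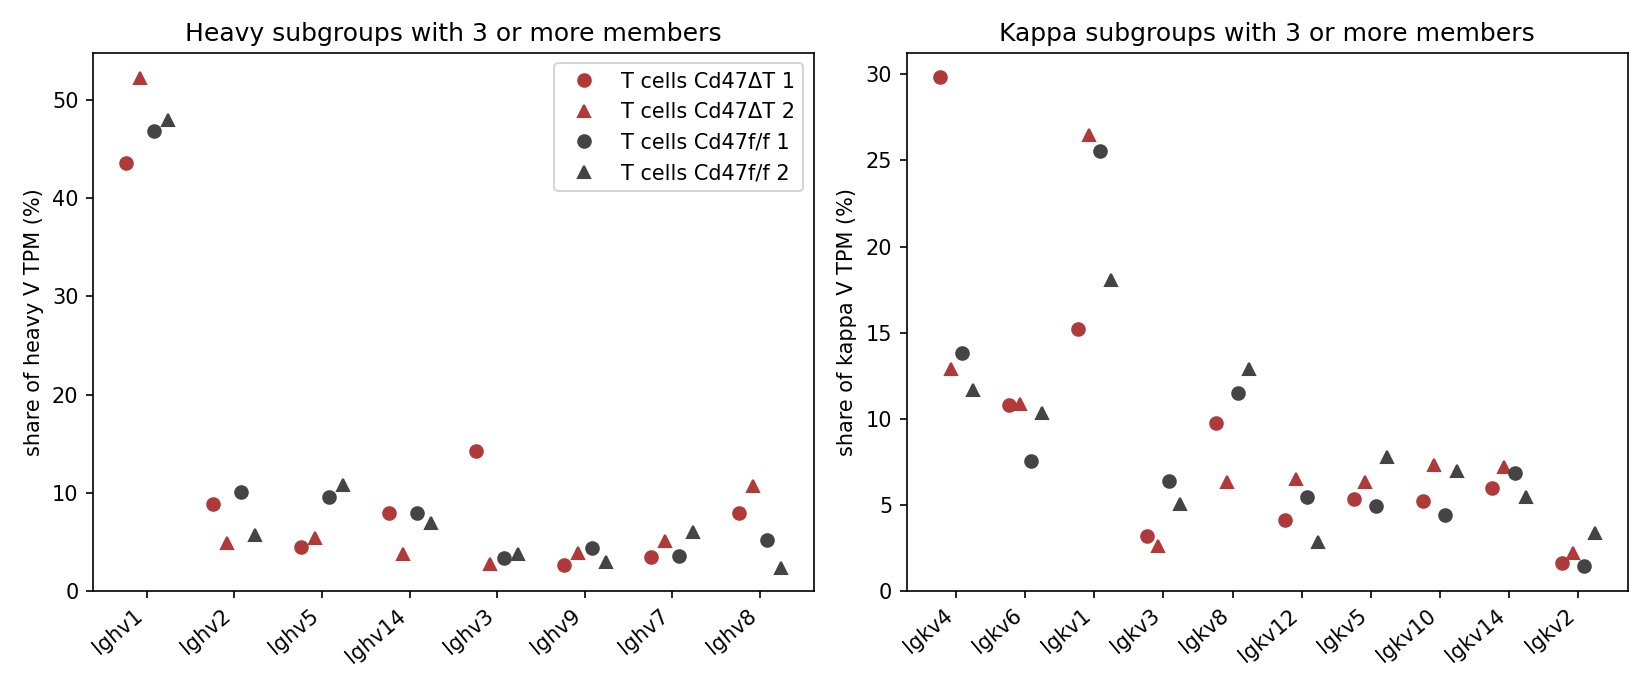
Share (%) of the heavy V total on the left and of the kappa V total on the right held by each V subgroup with 3 or more members, 1 point per T cell library. Cd47ΔT library 1 lies highest for Ighv3 (14.2%) and Igkv4 (29.8%), and its partner library lies with the Cd47f/f points there.

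Position in the locus did not separate the genotypes. Heavy segments in the nearer part of the locus to the J segments, 45 of the 83 members, held 53.8% and 41.9% of heavy V in Cd47ΔT and 50.5% and 55.7% in Cd47f/f T cells. The nearer 43 of the 78 kappa members held 56.0% and 39.96% of kappa V in Cd47ΔT and 45.9% and 45.0% in Cd47f/f T cells. The Cd47f/f values lay between the Cd47ΔT values for kappa, and the heavy ranges overlapped.

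Constant region genes, which encode the other part of antibody transcripts, were higher too. Of the 11 tested of 13, limma called 10 higher in Cd47ΔT T cells and 0 lower (0 at an unadjusted p under 0.05), with a median log2 fold change of 2.73, beside the 8.5% and 0.875% of all tested genes. The list summed to 7626 and 8316 TPM in Cd47ΔT, against 1506 and 1654 TPM in Cd47f/f T cells. Igkc, the kappa constant region, had 4271 and 4690 TPM in Cd47ΔT, against 587 and 638 TPM in Cd47f/f T cells (log2 fold change 2.87 ± 0.10 SE, limma adjusted p = 0.00078). Igha, the constant region of IgA, had 819 and 1177 TPM in Cd47ΔT, against 168 and 165 TPM in Cd47f/f T cells (log2 fold change 2.55 ± 0.17 SE, limma adjusted p = 0.00217). In 1 fit of all libraries these calls ended, at limma adjusted p = 0.0789 for Igkc and 0.187 for Igha. Ighm, the constant region of IgM, had 1067 and 1443 TPM in Cd47ΔT, against 615 and 678 TPM in Cd47f/f T cells (log2 fold change 0.94 ± 0.16 SE, limma adjusted p = 0.0184). The Ighm call ended without Cd47f/f library 1 (limma adjusted p = 0.0786), with median-of-ratios scaling (0.0542) and with no variance trend (0.0522), and without a filter the calls of Igha (0.0608) and Ighm (0.103) did too.

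Some of the IgG constant regions were uneven between replicates. Ighg2c, of IgG2c, had 635 and 111 TPM in Cd47ΔT T cells, against 20.5 and 4.62 TPM in Cd47f/f T cells. Ighg1, of IgG1, had 114 and 31.1 TPM in Cd47ΔT, against 5.14 and 4.98 TPM in Cd47f/f T cells. Both were highest in Cd47ΔT library 1, the library in which Igkv4-61 and Ighv3-6 were high. Ighg2b, of IgG2b, was more even, with 215 and 189 TPM in Cd47ΔT, against 16.3 and 20.2 TPM in Cd47f/f T cells.

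The V level per constant region level differed by locus. Over all annotated segments, heavy V per heavy constant TPM was 0.757 and 0.797 in Cd47ΔT, against 0.402 and 0.495 in Cd47f/f T cells. The kappa ratio was 0.893 and 0.907 in Cd47ΔT, against 1.05 and 1.07 in Cd47f/f T cells. The lambda ratio was 1.07 and 1.08 in Cd47ΔT, against 1.02 and 1.08 in Cd47f/f T cells. The heavy ratio was higher and the kappa ratio lower in both Cd47ΔT libraries, without a test, and the lambda ranges overlapped. Ighm made up 1067 of 2980 and 1443 of 3112 heavy constant TPM in Cd47ΔT T cells. In Cd47f/f T cells it made up more, 615 of 838 and 678 of 928 TPM. The heavy ratio thus depends on Ighm. With Ighm taken out of these sums, heavy V per heavy constant TPM was lower, not higher, in both Cd47ΔT libraries. The gap between Cd47ΔT library 2 and Cd47f/f library 1 was then narrow. No rise of heavy V over the other constant regions is read from the heavy ratio.

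Markers of B-lineage cells were higher beside the V segments. Of 12 tested B cell markers (15 in the list), limma called 9 higher in Cd47ΔT T cells and 0 lower (0 at an unadjusted p under 0.05), with a median log2 fold change of 1.87, beside the 8.5% and 0.875% of all tested genes. They summed to 103 and 206 TPM in Cd47ΔT, against 36.6 and 45.7 TPM in Cd47f/f T cells, and 0 were at 0 in all T cell libraries. The count was 0 without Cd47f/f library 1 and 2 without Cd47f/f library 2. The same 15 genes summed to 158 to 202 TPM in Cd47ΔT and 268 to 322 TPM in Cd47f/f cDC2s, so cDC2 libraries hold transcripts of this list too. Cd79a, a signalling chain of the B cell receptor, had 10.4 and 37.8 TPM in Cd47ΔT, against 0.97 and 2.03 TPM in Cd47f/f T cells (log2 fold change 3.11 ± 0.56 SE, limma adjusted p = 0.0249). That call ended without Cd47f/f library 1 (limma adjusted p = 0.106), without Cd47f/f library 2 (0.0573), with quantile scaling (0.0504) and without a filter (0.126). The Cd79a value was highest in Cd47ΔT library 2. Cd79b and Pou2af1 had higher means over the T cell libraries than Cd79a and differed less between genotypes. Cd79b had 33.8 and 51.2 TPM in Cd47ΔT, against 12.9 TPM in each Cd47f/f T cell library. Pou2af1 had 23.9 and 25.6 TPM in Cd47ΔT, against 16.9 and 21.6 TPM in Cd47f/f T cells.

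Of 10 plasma cell markers, limma called 8 higher in Cd47ΔT T cells and 0 lower (0 at an unadjusted p under 0.05), with a median log2 fold change of 1.35, beside the same 8.5% and 0.875%. They summed to 488 and 537 TPM in Cd47ΔT, against 143 and 167 TPM in Cd47f/f T cells, and 0 were at 0 in all T cell libraries. The count was 3 without Cd47f/f library 1 and 5 without Cd47ΔT library 2. Jchain, which links IgM and IgA into polymers, had 309 and 345 TPM in Cd47ΔT, against 57.01 and 64.3 TPM in Cd47f/f T cells (log2 fold change 2.41 ± 0.12 SE, limma adjusted p = 0.00111). Mzb1, an endoplasmic reticulum protein of antibody-secreting cells, had 32.2 and 26.8 TPM in Cd47ΔT, against 3.73 and 5.79 TPM in Cd47f/f T cells (log2 fold change 2.42 ± 0.24 SE, limma adjusted p = 0.00538, and 0.0693 without a filter). Unlike Cd79a, Jchain and Mzb1 had similar values in the Cd47ΔT libraries, as the V total had. Txndc5 and Xbp1 stood higher than Mzb1 in T cells and differed less between genotypes. Txndc5 had 72.5 and 83.0 TPM in Cd47ΔT, against 44.9 and 52.4 TPM in Cd47f/f T cells. Xbp1 had 54.15 and 59.0 TPM in Cd47ΔT, against 32.45 and 37.7 TPM in Cd47f/f T cells. The part of B-lineage cells in the V difference was not tested.

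Genes of B cell receptor signalling moved with them, and genes of V(D)J recombination did not pass the test. Of 12 tested signalling genes, limma called 10 higher in Cd47ΔT T cells and 0 lower (0 at an unadjusted p under 0.05), with a median log2 fold change of 1.74, beside 8.5% and 0.875% of all tested genes. Of 7 tested recombination and surrogate light chain genes, limma called 0 in either direction, with a median of -0.15 and with 2 higher and 1 lower at an unadjusted p under 0.05. Rag1 and Rag2, the recombinase genes, stood at 0 to 0.16 TPM in every T cell library.

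Marker counts of other cell types also stood above the 8.5% of all tested genes called higher. Of 9 macrophage markers 9 were higher in Cd47ΔT T cells in limma, with sums of 172 and 270.2 TPM in Cd47ΔT, against 23.2 and 28.3 TPM in Cd47f/f T cells. Of 7 NK cell markers 5 were higher, with sums of 238 and 367 TPM in Cd47ΔT, against 81.7 and 115 TPM in Cd47f/f T cells. Of 7 tested cDC2 markers 5 were higher, of 8 plasmacytoid dendritic cell markers 3, of 5 erythroid markers 3 and of 4 neutrophil markers 2. Of 11 T cell markers limma called 0 in either direction, and 1 higher and 1 lower at an unadjusted p under 0.05, with sums of 7870 and 7162 TPM in Cd47ΔT, against 7779 and 7631 TPM in Cd47f/f T cells. Markers of several other cell types were higher in the libraries with more V transcripts, and their part in the result was not tested.

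**Figure D5:**
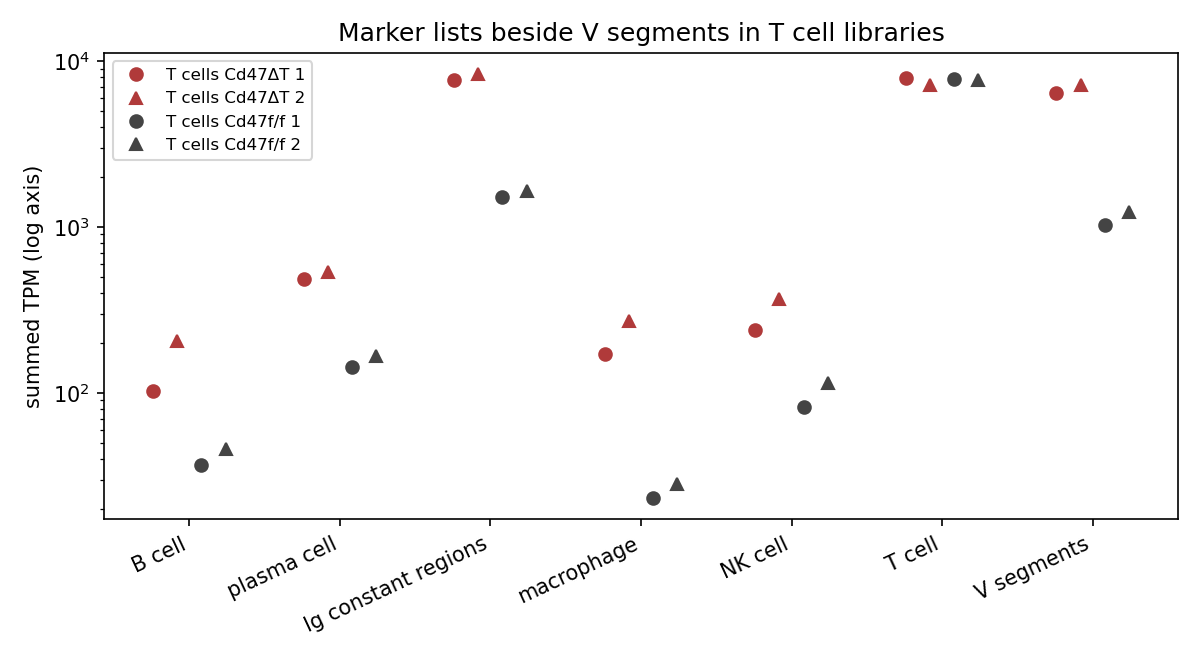
Summed TPM (log axis) of marker lists, immunoglobulin constant regions and the 164 V segments in each T cell library, Cd47ΔT in red and Cd47f/f in grey. Both Cd47ΔT libraries lie above both Cd47f/f libraries in every list shown but the T cell markers, where the values run between 7162 and 7870 TPM.

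In cDC2s, whose values did not choose the segments, V transcripts were scarce. The 164 segments summed to 12.9, 58.7 and 20.9 TPM in Cd47ΔT cDC2s, against 46.2, 78.5 and 46.0 TPM in Cd47f/f cDC2s. There were 3, 5 and 3 segments listed above 0 in Cd47ΔT, against 9, 5 and 5 in Cd47f/f cDC2s. The sums overlapped between genotypes. Of the 164, 140 were listed at 0 in all 6 libraries, 22 were above 0 in 1 library only and 1 in 2 libraries. None of the 184 other V segments was above 0. The cDC2 libraries were made with a kit other than that of the T cell libraries, so cell type and kit cannot be told apart in these levels.

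Some cDC2 sums rested largely on a segment seen in 1 library only. Ighv5-4 had 38.2 TPM in Cd47f/f cDC2 library 2 and Ighv2-5 had 24.6 TPM in Cd47f/f cDC2 library 3. Ighv1-39 had 24.1 TPM in Cd47ΔT cDC2 library 2. Each of the 3 was listed at 0 in the other 5 cDC2 libraries. Igkv14-111 was the only segment above 0 in all 6 and the only one tested. It had 1.32, 9.11 and 15.6 TPM in Cd47ΔT cDC2s, against 3.88, 2.44 and 9.91 TPM in Cd47f/f cDC2s (log2 fold change 0.36 ± 0.73 SE, limma adjusted p = 0.874). The groups overlapped, and without Cd47ΔT library 3 the log2 fold change was -0.23. In cDC2s 0.249% of 12058 tested genes were called higher and 0.381% lower.

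Igkc and Jchain were lower in cDC2s than in T cells, while Ighm stood at 167 to 177 TPM in Cd47ΔT and at 166 to 169 TPM in Cd47f/f cDC2s. Over all annotated segments, heavy V per heavy constant TPM was 0.012 to 0.151 in Cd47ΔT and 0.107 to 0.239 in Cd47f/f cDC2s. Ighm levels there thus did not stand for heavy V levels. Igkc had 11.7, 37.9 and 1.75 TPM in Cd47ΔT cDC2s, against 47.2, 53.9 and 50.2 TPM in Cd47f/f cDC2s (log2 fold change -2.21 ± 0.81 SE, limma adjusted p = 0.286). Jchain had 1.0, 2.06 and 0.33 TPM in Cd47ΔT cDC2s, against 4.64, 7.94 and 4.99 TPM in Cd47f/f cDC2s (log2 fold change -1.74 ± 0.37 SE, limma adjusted p = 0.103). For both genes every Cd47ΔT value lay below every Cd47f/f value, which held for 13.5% of all tested genes, and neither passed the adjusted threshold. In 1 fit of all libraries Jchain did, at limma adjusted p = 0.0169 with the same log2 fold change. Of 5 tested constant region genes limma called 0 in either direction (2 lower at an unadjusted p under 0.05), and of 5 tested plasma cell markers 0 (1 lower at an unadjusted p under 0.05). Of 7 tested B cell markers 1 was called lower.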

How the data were processed

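The authors deposited TPM for 45706 Ensembl genes in 10 libraries, made with STAR, RSEM and DESeq2 on GRCm38, per the submitters' processing notes (versions and annotation release not given in the sources used here). Per the labels' protocols, a TruSeq stranded mRNA kit served for T cells and a SMART-seq stranded kit for cDC2s. Of the identifiers, 45143 (98.8%) matched GENCODE M21 and 563 did not. TPM keep no depth, so counting error is unknown. Strand use in counting is not given.

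V segments were taken by symbol and kept where 2 T cell libraries or more reached 1 TPM. For each cell type alone, limma 3.58.1 in R 4.3.3 tested log2(TPM + 1) of genes at that level in 2 T cell or 3 cDC2 libraries (variance trend, genotype only, Benjamini-Hochberg, called under 0.05). Fold changes on this scale understate low genes. Heavy, kappa and lambda sums, shares and effective numbers were computed per library, without a test. Identity came from global alignment in Biopython 1.88. Figures were drawn with matplotlib 3.10.9 and tables built with pandas 2.3.3 and numpy 2.4.6 under Python 3.11.15. The fits were tested on simulated data. The T cell fit found 28.1% of changes of 1 log2 unit and 91.3% of changes of 2. The cDC2 fit found 37.7% and 82.5%, so many changes of 1 log2 unit are missed. False calls were 5.16% of calls in T cells and 5.8% in cDC2s. The simulated noise was independent between genes and drawn around a variance trend, with 200 changed genes of random sign. In the T cell data more genes were called higher than lower, so these rates are not those of the data.

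The segments, the 12 gene lists and the tests were chosen with earlier results of these data known. Named segments were the 6 heavy, 6 kappa and 3 lambda with the highest T cell mean, the 4 highest in cDC2s, the 3 largest and 3 smallest T cell ratios, and the 3 on each side of the threshold. Named list genes were among the highest of their list, or genes chosen after values were seen (Ighg1, Ighg2b, Rag1, Rag2). A gene of the lists is not reported here by name. Alternatives were other pseudocounts (0.1 and 5), filters, scalings, trends, 1 fit of all libraries, a replicate block and leaving out each library.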

Additional observations from a re-analysis of the deposited data

Results flagged for a closer look

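The genotype effect on Igkc, the kappa constant region, differed between cell types in an interaction fit of all libraries that was added after the data were seen. The log2 fold change in T cells minus that in cDC2s was 5.08 ± 1.04 SE (limma adjusted p = 0.0133, 0.000698 to 0.0975 over the alternatives). Igkc was flagged because every Cd47ΔT value was above every Cd47f/f value in T cells and below in cDC2s. The same libraries gave that pattern and the p-value, so the p-value is no separate support. The call ended without Cd47ΔT T cell library 2 (adjusted p = 0.0542), without Cd47f/f T cell library 1 (0.0975) and without Cd47f/f T cell library 2 (0.0599).

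The genotype effect on Jchain differed in the same way, with a difference of 4.15 ± 0.44 SE (limma adjusted p = 0.000282, 6.3e-05 to 0.00626 over the alternatives). Jchain was flagged by the pattern given for Igkc, so the same limit holds. Cell type and library kit cannot be told apart in these differences.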

How the results depend on the processing

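The log2 ratio of the V totals in T cells was 2.59 and stayed between 2.44 and 2.73 over all V segments, a 5 TPM rule, functional genes, relative reads, 2 scalings and each library left out. Differences in shares were -0.62 (heavy), 1.56 (kappa) and -0.93 (lambda) percentage points. Those in effective number and top 5 share were 5.36 and 0.51 percentage points. The 2 scalings multiply a whole library and so cannot change these differences. The heavy, kappa and top 5 differences changed sign when 1 library was left out (-2.88 to 1.63, -0.56 to 3.67 and -2.16 to 3.18). The lambda difference then ran from -1.67 to -0.20 and that in effective number from 1.77 to 8.95. The 1058 genes higher in Cd47ΔT T cells became 14 with no filter, 679 with a 5 TPM filter, 652 with quantile scaling, and 585 to 1439 with 1 library left out. The 109 lower became 1 with no filter, 333 with quantile and 263 with median-of-ratios scaling, and 51 to 140 with 1 library left out. The 9 B cell markers became 4 with pseudocount 5, 0 with no filter, 3 with a 5 TPM filter, 2 with quantile and 5 with median-of-ratios scaling, and 0 to 11 with 1 library left out. The 8 plasma cell markers became 1 with no filter, 4 with a 5 TPM filter, 5 with quantile scaling, and 3 to 8 with 1 library left out. The 10 constant regions became 3 with no filter. In cDC2s the 30 higher and 46 lower genes became 2 and 4 with no filter, 68 and 103 in 1 fit of all libraries, 7 and 5 with no variance trend, and 0 to 9 and 0 to 5 with 1 library left out. The Igkv14-111 log2 fold change in cDC2s was -0.23 to 1.19 with 1 library left out, reversed without Cd47ΔT library 3. The cause was not tested. The median log2 fold change of all T cell genes was 0.10, and -0.08 and -0.04 with quantile and median-of-ratios scaling. Equal replicate numbers share only a number: deviations correlated at 0.19 in T cells and at -0.04, 0.06 and 0.12 in cDC2s. With the replicate block 1986 genes were higher and 310 lower in T cells, and 3 genes were higher and 1 lower in cDC2s. Depth is unknown and limits low segments.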

Other observations

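Ighv1-85, a heavy V gene outside the threshold, had 0.49 and 47.0 TPM in Cd47ΔT T cells, against 0 and 0.70 TPM in Cd47f/f T cells, so 1 library held nearly all of it.

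T cell receptor V genes, of which 143 are annotated, summed to 3301 and 3098 TPM in Cd47ΔT, against 3399 and 3636 TPM in Cd47f/f T cells. Their effective number was 54.5 and 55.1 in Cd47ΔT, against 52.8 and 57.1 in Cd47f/f T cells.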
